A study of Arabidopsis thaliana with 6 samples.

Results

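Cytosolic ribosomal protein genes were followed in callus of Arabidopsis thaliana Col-0, the standard laboratory accession, labelled by that name alone. Leaves cut from 2-week-old seedlings were kept on callus-inducing medium, and whole calli were taken after 12 days (12DAC calli, 3 libraries) and after 7 days (7DAC calli, 3 libraries); all calli share this genotype, explant and medium, and no explant tissue from before the incubation was sequenced here. Each library is bulk RNA of whole callus, a mass of dividing and differentiated cells with no single defining marker against which the label could be checked, and the 3 libraries of a day are described as biological replicates. The set holds 60 loci of the 36793 in the deposited count table, taken by locus identifier: 32 genes for proteins of the large subunit, 19 for the small subunit and 9 for the acidic stalk, from 31 protein families, most with 2 or 3 paralogs. All 60 are annotated as ribosomal in RefSeq, and another 174 loci make up the rest of the cytosolic family as listed here, 234 genes in 80 families. The 60 genes were put forward with the values of these same libraries known. Their difference between the days is therefore given as a description, with no test drawn from it, and the rule has no threshold on a value.

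The cytosolic (80S) ribosome of plants has a large subunit, where peptide bonds form, and a small subunit, where the messenger RNA is decoded. Its proteins are encoded in the nucleus by small families of paralogs, most of which are transcribed together, and their messenger RNAs are abundant wherever cells grow and divide. A stalk of acidic P proteins on the large subunit brings in the elongation factors: P0 anchors it, P1 and P2 form its arms, and P3 is a form found in plants. Callus on auxin-rich medium grows by cell division from the explant, and mutants in several of these genes have narrow or pointed leaves and altered leaf polarity. Many plant ribosomal protein promoters hold a telo box and site II elements shortly before the start of transcription.

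The promoter windows were read first, because they show what the set shares apart from the day values. A site II element (TGGGCC or TGGGCT, either strand, overlapping matches counted) lay in the 250 bases before the annotated start of 38 of the 60 genes, 63.3%, and 29 genes had more than 1. The share was 70.7% in the rest of the family (123 of 174) and 19.2% over all 27444 protein-coding genes of RefSeq TAIR10.1. The telo box (AAACCCTA, either strand) was rarer: it lay in 8 of the 60 windows, 13.3%, against 25.9% in the rest of the family and 4.49% over all protein-coding genes. Both motifs were found in 6 of the 60 genes and neither in 20. Of the 91 site II matches in the set, 90 lay within 150 bases of the start, 98.9%, against 78.9% of the matches over all protein-coding genes. These are matches of letters, not shown binding sites. 4 windows are printed, all on the reverse strand of TAIR10.1 and written 5′ to 3′ up to the base before the start, with motifs in capitals. 3 belong to the gene with the lowest fitted change in its group among those whose window overlaps no other annotated gene (28 of the 60 windows do overlap one), and 1 to the small-subunit gene with the least negative change, a paralog of RPS6. AT1G77940 (L30, large subunit, chr1:29305412-29305661) has a telo box that ends at its start and no site II element. RPS6 (AT4G31700, chr4:15347805-15348054) has 1 site II element, while its paralog EMB3010 (AT5G10360, chr5:3260255-3260504) has 3 matches, of which a pair overlap on opposite strands. AT4G00810 (P1, stalk, chr4:347294-347543) has a telo box between 2 site II elements.
AT1G77940: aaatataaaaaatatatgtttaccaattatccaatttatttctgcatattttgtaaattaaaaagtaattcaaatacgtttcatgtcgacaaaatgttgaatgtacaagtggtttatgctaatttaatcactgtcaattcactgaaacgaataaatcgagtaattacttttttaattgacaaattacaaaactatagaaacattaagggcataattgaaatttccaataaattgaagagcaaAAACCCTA
RPS6: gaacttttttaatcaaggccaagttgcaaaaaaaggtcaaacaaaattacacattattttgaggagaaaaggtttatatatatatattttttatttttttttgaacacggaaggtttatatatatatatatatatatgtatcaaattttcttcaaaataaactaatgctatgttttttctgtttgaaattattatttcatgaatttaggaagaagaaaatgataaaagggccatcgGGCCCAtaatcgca
EMB3010: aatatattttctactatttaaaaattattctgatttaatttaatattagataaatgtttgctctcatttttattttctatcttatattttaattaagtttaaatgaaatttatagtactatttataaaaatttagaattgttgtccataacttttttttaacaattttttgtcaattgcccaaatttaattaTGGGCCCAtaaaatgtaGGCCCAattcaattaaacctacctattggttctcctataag
AT4G00810: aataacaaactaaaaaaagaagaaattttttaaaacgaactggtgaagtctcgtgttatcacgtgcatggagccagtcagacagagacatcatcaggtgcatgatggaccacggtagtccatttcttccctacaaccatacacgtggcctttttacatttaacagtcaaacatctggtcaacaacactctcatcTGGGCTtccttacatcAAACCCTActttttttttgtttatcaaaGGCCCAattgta

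**Figure D1:**
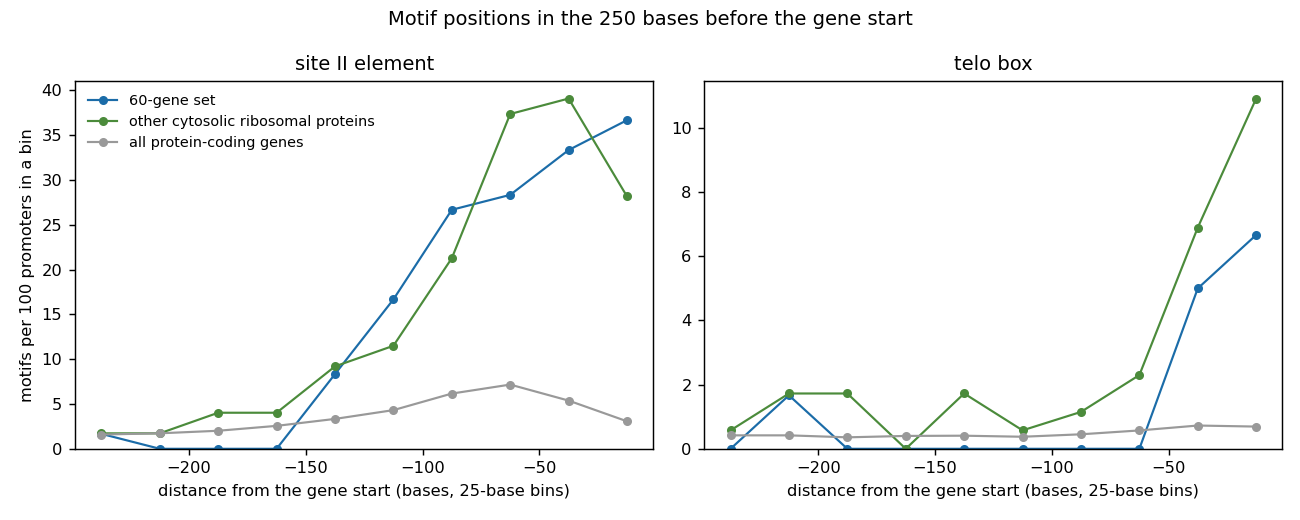
Motifs per 100 promoters (y axis) by distance before the annotated gene start in 25-base bins (x axis), for site II elements (left) and the telo box (right), in the 60-gene set, the other 174 cytosolic ribosomal protein genes and all 27444 protein-coding genes. In the set, 90 of 91 site II matches and 7 of 8 telo boxes lie within 150 bases of the start.

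The 60 genes made up a smaller share of the messenger RNA in 12DAC calli than in 7DAC calli. They held 2.33% ± 0.0862 of all counts in 12DAC libraries and 3.42% ± 0.0655 in 7DAC libraries (SD, n = 3 each), and the whole family of 234 genes held 6.74% ± 0.215 of counts in 12DAC libraries and 9.88% ± 0.234 in 7DAC libraries. After ribosomal RNA loci were taken out, the set held 4.07% ± 0.204 of summed TPM (transcript abundance scaled per length and per library) in 12DAC calli and 5.69% ± 0.0734 in 7DAC calli. By group, the large-subunit genes held 1.31% ± 0.0461 in 12DAC calli and 1.94% ± 0.0239 in 7DAC calli of counts, the small-subunit genes 0.804% ± 0.0248 in 12DAC calli and 1.15% ± 0.0391 in 7DAC calli and the stalk genes 0.216% ± 0.0194 in 12DAC calli and 0.333% ± 0.00983 in 7DAC calli. In none of the 3 groups did the libraries of the days overlap on this measure. In bulk samples, fewer cells with active ribosome production and less of these RNAs per cell cannot be told apart.

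Gene by gene, 59 of the 60 had enough counts to be fitted. The edgeR quasi-likelihood fit of 12DAC over 7DAC calli gave every one of the 59 a negative log2 change, with a median of -0.55 (a change of -31.6%) and a range of -0.88 to -0.22, where the median over all 18364 loci tested was -0.0015. 58 of the 59 were called lower at a Benjamini-Hochberg adjusted p under 0.05, as were 12.5% of all tested loci. No gene of the set had a positive change under edgeR, DESeq2 or limma. In all 59 the 3 values in CPM (counts scaled by library size with TMM factors) of 12DAC calli lay below the 3 of 7DAC calli, as they did in 22.5% of all tested loci. Since the set was put forward with this contrast in view, nothing is read from these counts. On log2(TPM + 1), which keeps ribosomal RNA in the total, 9 of 59 were called lower, as were 3.05% of all loci tested on that scale, and the median was -0.45. Ribosomal RNA loci took 12.6%, 4.15% and 20.3% of TPM in the 12DAC libraries and 30.7%, 1.67% and 11.3% in the 7DAC libraries, and without them 58 of 59 were called lower on that scale, as were 9.33% of all loci.

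The libraries of a day did not sit at one level. Relative to the mean of 7DAC calli, the median log2 level of the 59 genes was -0.57, -0.65 and -0.47 in the 3 12DAC libraries and -0.0019, -0.019 and 0.015 in the 3 7DAC libraries. Replicate 3 of the 12DAC calli, the library with the fewest counts (4927953) and the most ribosomal RNA counts (3.90%), was the highest 12DAC library for 51 of the 59 genes. Replicate 2, with 10426265 counts and 0.422% ribosomal RNA, was the lowest for 41. The part of depth and ribosomal RNA in that order was not tested. Total counts were 9944126, 10426265 and 4927953 in the 12DAC libraries and 7412972, 10746277 and 8901518 in the 7DAC libraries.

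**Figure D2:**
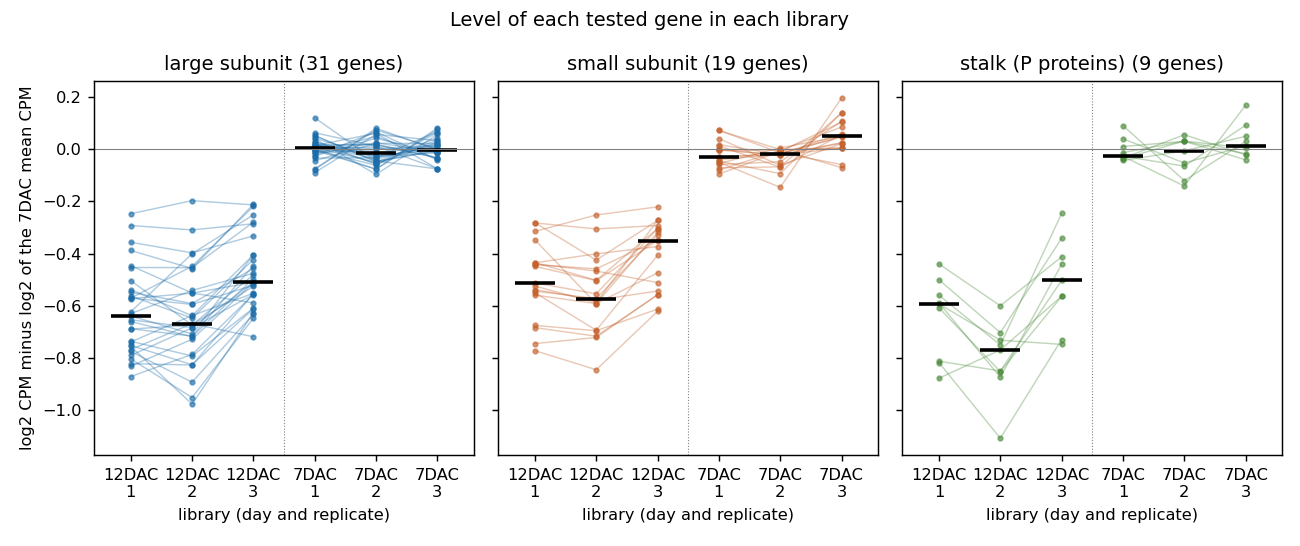
Level of each of the 59 fitted genes in each library (x axis; 12DAC replicates 1 to 3, then 7DAC replicates 1 to 3) as log2 CPM minus log2 of the 7DAC mean CPM (y axis), by group; points are genes, thin lines join the values of 1 gene within a day and black ticks are medians. The medians over all 59 genes are -0.57, -0.65 and -0.47 in the 12DAC libraries and lie between -0.019 and 0.015 in the 7DAC libraries.

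Large-subunit genes had a median log2 change of -0.58 over the 31 fitted, from -0.80 to -0.22. AT2G43460, for the small protein L38, had 205, 185 and 229 CPM in 12DAC calli, against 371, 347 and 357 CPM in 7DAC calli. Its fitted log2 change was -0.80 ± 0.099 (standard error), the lowest of the subunit, and no library of one day reached those of the other. AT1G77940, for L30, whose promoter is printed above, had 322, 276 and 352 CPM in 12DAC calli, against 531, 532 and 569 CPM in 7DAC calli, a log2 change of -0.78 ± 0.10. RPL23AA (AT2G39460) encodes L23a, which lies at the exit of the peptide tunnel, and had 479.7, 442 and 529.8 CPM in 12DAC calli, against 832, 789.6 and 841 CPM in 7DAC calli. Its change of -0.76 ± 0.093 was close to that of its paralog RPL23AB (AT3G55280), -0.73 ± 0.10. As percent of the 7DAC level, the changes of this L23a pair were -41.1% and -39.7%. Other large-subunit genes between -0.73 and -0.64 were the L36a genes AT4G14320 and AT3G23390, the L34 genes AT1G26880 and RPL34 (AT1G69620), RPL24A (AT2G36620) for L24, AT5G22440 for L10a and RPL10B (AT1G26910) for L10.

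At the other end of the subunit stood RP1 (AT1G43170), also named RPL3A, for L3, a protein that reaches the peptidyl transferase centre. RP1 had 1645, 1703 and 1684 CPM in 12DAC calli, against 1978, 1910.5 and 1967 CPM in 7DAC calli. Its 12DAC libraries all lay below its 7DAC libraries, and its fitted log2 change was the least negative of the set, -0.22 ± 0.077; it was the only fitted gene of the 60 that edgeR did not call. It also had the highest TPM of the large-subunit genes, 1578 ± 174 TPM in 12DAC calli and 1748 ± 289.7 TPM in 7DAC calli. SAG24 (AT1G66580), which is RPL10C and was first found as a senescence-associated gene, had 529, 523 and 531 CPM in 12DAC calli, against 648, 614 and 682 CPM in 7DAC calli, a log2 change of -0.30 ± 0.081. PGY1 (AT2G27530), for L10a of the mobile stalk near the tRNA exit site, had 488, 465 and 551 CPM in 12DAC calli, against 632, 659.8 and 622 CPM in 7DAC calli, a change of -0.35 ± 0.092. In both genes the days stayed apart, by less than in AT2G43460 or AT1G77940.

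AT3G10950, one of 2 genes for L37a, was listed with 0 counts and 0 TPM in all 6 libraries. A count of 0 allows up to 3 counts, which is 0.287 to 0.635 CPM in the 12DAC libraries and 0.269 to 0.408 CPM in the 7DAC libraries. Its paralog AT3G60245, 80.6% identical to it over the coding sequence, had 476, 462 and 507 CPM in 12DAC calli, against 703, 704 and 679.5 CPM in 7DAC calli. All measured L37a message was thus assigned to AT3G60245, and its log2 change was -0.53 ± 0.081. The pair of L37 genes in the set, AT1G52300 and AT3G16080, for another zinc-binding protein, had changes of -0.57 ± 0.089 and -0.58 ± 0.10.

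Stalk genes had a median log2 change of -0.67 over 9 genes, from -0.88 to -0.49. AT4G00810, for P1, had 100.2, 82.0 and 107 CPM in 12DAC calli, against 188, 162 and 180.2 CPM in 7DAC calli. Its change of -0.88 ± 0.12 was the lowest of the whole set, a difference of -45.7% from the 7DAC level, and the highest 12DAC library stayed well below the lowest 7DAC library. AT2G40010, a P0 gene of low level, had 19.6, 21.1 and 24.4 CPM in 12DAC calli, against 35.6, 36.7 and 35.5 CPM in 7DAC calli, a log2 change of -0.74 ± 0.12. AT3G09200, the P0 gene with most of that family's message, had 890.3, 774 and 994 CPM in 12DAC calli, against 1294, 1213 and 1271 CPM in 7DAC calli, a change of -0.51 ± 0.10. Per length, the 2 most abundant stalk genes stood level. AT1G01100, for P1, had 840.1 ± 47.3 TPM in 12DAC calli and 1124 ± 214 TPM in 7DAC calli, and AT3G09200 had 830.4 ± 35.970 TPM in 12DAC calli and 1128 ± 175 TPM in 7DAC calli, so neither led on both days. AT1G01100 had 406, 364 and 414 CPM in 12DAC calli, against 541, 499.7 and 619 CPM in 7DAC calli and the least negative change of the stalk, -0.49 ± 0.10. The P2 genes AT3G44590 and AT2G27710 had changes of -0.72 ± 0.11 and -0.67 ± 0.097, and the P3 gene AT4G25890 had -0.69 ± 0.088.

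Small-subunit genes had a median log2 change of -0.46 over 19 genes, from -0.74 to -0.26. RPS6 (AT4G31700), or RPS6A, encodes S6, the small-subunit protein phosphorylated by S6 kinase below TOR. RPS6 had 499, 474 and 554 CPM in 12DAC calli, against 895, 843 and 817 CPM in 7DAC calli, and its change of -0.74 ± 0.092 was the lowest of the subunit. Its paralog EMB3010 (AT5G10360), or RPS6B, had 769, 803 and 820.3 CPM in 12DAC calli, against 920.4, 959 and 989 CPM in 7DAC calli and the least negative change of the subunit, -0.26 ± 0.081. Both S6 genes were lower in each 12DAC library than in any 7DAC library, with changes of -40.3% for RPS6 and -16.6% for EMB3010. RPSAb (AT3G04770), a minor gene for the laminin-receptor-like protein Sa, had 16.7, 17.004 and 19.1 CPM in 12DAC calli, against 27.1, 25.3 and 32.1 CPM in 7DAC calli, a change of -0.68 ± 0.13. AT5G47930, for the zinc-binding protein S27, had 227, 224 and 237 CPM in 12DAC calli, against 362, 362 and 364 CPM in 7DAC calli, with libraries of a day close to each other and a change of -0.66 ± 0.079.

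Least changed beside EMB3010 were RPS18C and RPS5B. RPS18C (AT4G09800) encodes S18, which bridges the subunits at the head, and had 387, 381 and 385 CPM in 12DAC calli, against 448, 449 and 518 CPM in 7DAC calli, a change of -0.30 ± 0.089. RPS5B (AT2G37270) had 312, 282 and 314 CPM in 12DAC calli, against 355, 377 and 407 CPM in 7DAC calli, a change of -0.33 ± 0.091. The small-subunit gene with the highest TPM was AT5G20290, for S8, at 1389 ± 92.1 TPM in 12DAC calli and 1908 ± 305 TPM in 7DAC calli. AT5G20290 had 1083, 1059 and 1149 CPM in 12DAC calli, against 1609, 1520.3 and 1658 CPM in 7DAC calli, and its change of -0.54 ± 0.083 lay near the median of the whole set. The remaining small-subunit genes, for S10, S12, S13, S24, S28 and the other S5, S18 and Sa copies, lay between -0.65 and -0.40.

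**Figure D3:**
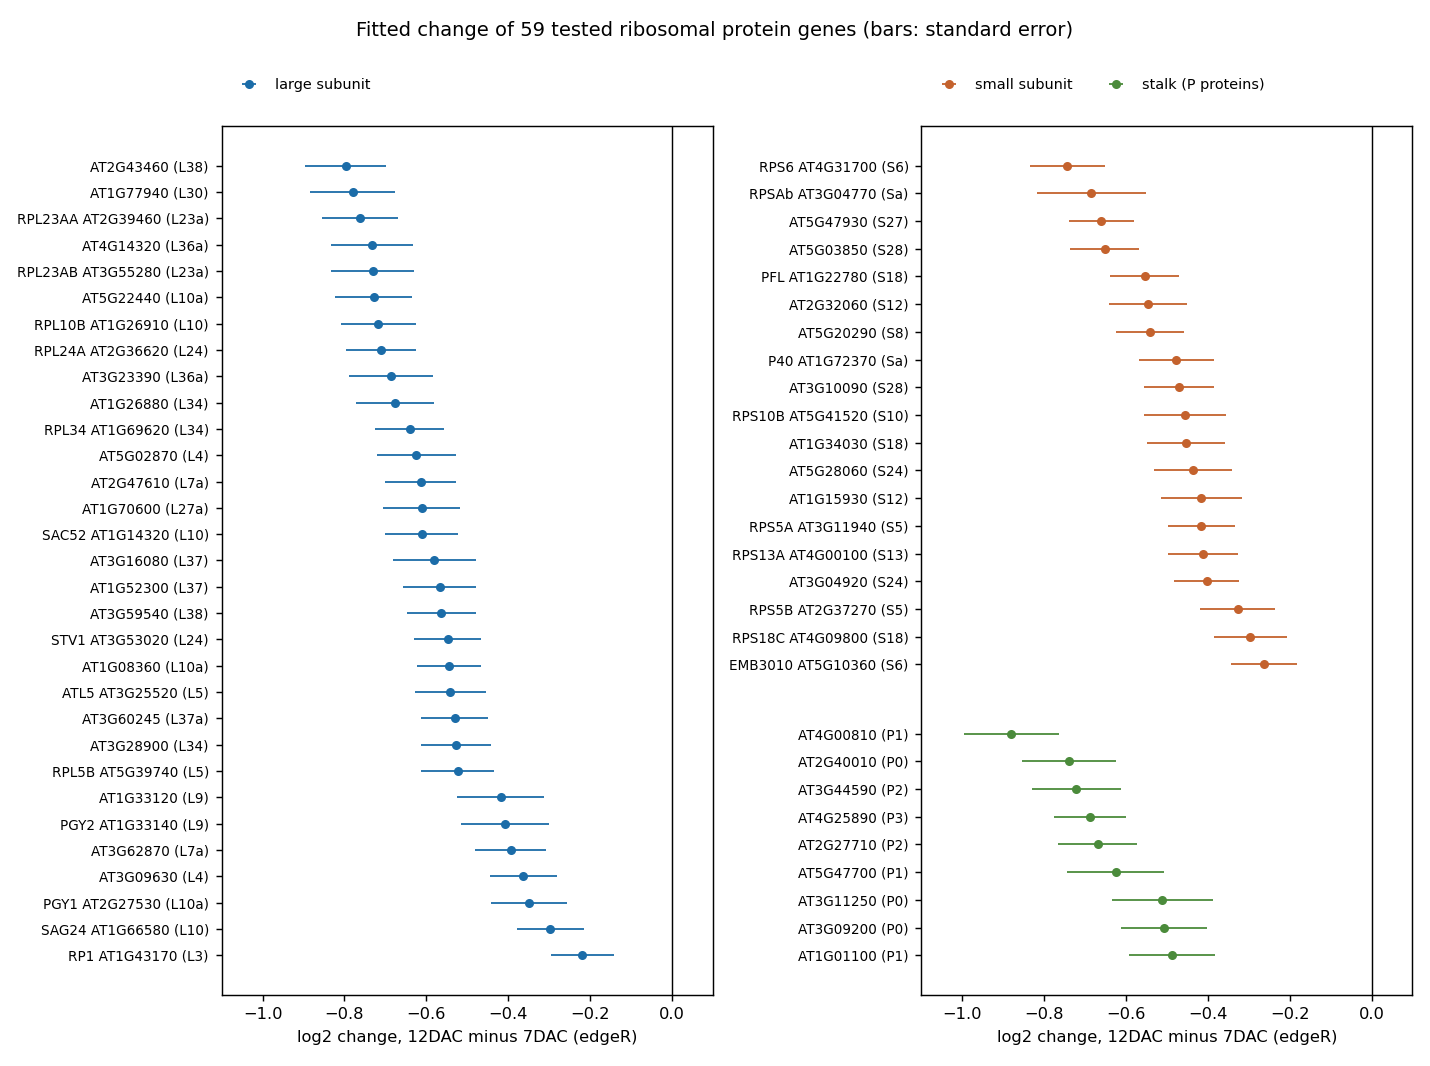
Fitted log2 change of 12DAC over 7DAC calli (x axis) for each of the 59 fitted genes (rows, with the protein family in brackets), large subunit left, small subunit and stalk right; points are edgeR estimates and bars their standard errors. All points lie left of 0, from AT4G00810 at -0.88 to RP1 at -0.22.

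The order of the groups in the set, stalk lowest at -0.67, then large subunit at -0.58 and small subunit at -0.46, was not the order in the rest of the family. There, the medians were -0.34 over 3 fitted stalk genes, -0.54 over 86 large-subunit genes and -0.56 over 68 small-subunit genes. The stalk value there rests on few genes. The 2 subunit medians lie close together beside median standard errors per gene of 0.092 (large) and 0.090 (small), so no order of the subunits is read from them. Among the 22 families with 2 or more fitted genes in the set, the difference in log2 change between the least and the most negative paralog ran from 0.010 in L9 to 0.48 in S6.

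The makeup of the 5 families with the widest of these differences is given as a description, since they were chosen for it. Shares are given as percent of the summed TPM of a family, which compares paralogs per length. RPS6 held 40.8% ± 2.10 in 12DAC calli and 48.9% ± 2.11 in 7DAC calli of S6 message, with EMB3010 the rest; the share of RPS6 was 41.3%, 38.5% and 42.6% in the 12DAC libraries and 51.2%, 48.6% and 47.0% in the 7DAC libraries. So the pair was near parity in 7DAC calli and EMB3010 led in every 12DAC library. In L10, a late-joining protein of the large subunit, SAC52 (AT1G14320) held 55.6% ± 1.72 in 12DAC calli and 60.3% ± 1.22 in 7DAC calli, SAG24 41.2% ± 1.56 in 12DAC calli and 35.9% ± 1.24 in 7DAC calli and RPL10B 3.20% ± 0.222 in 12DAC calli and 3.80% ± 0.216 in 7DAC calli. SAG24 had the higher share in each 12DAC library, beside log2 changes in CPM of -0.61 ± 0.089 for SAC52, -0.72 ± 0.092 for RPL10B and -0.30 ± 0.081 for SAG24.

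Of the 3 P1 genes, AT1G01100 held 53.5% ± 2.26 in 12DAC calli and 49.98% ± 1.09 in 7DAC calli and AT4G00810 13.6% ± 0.276 in 12DAC calli and 16.6% ± 1.15 in 7DAC calli, while the share of AT5G47700 overlapped between the days at 32.8% ± 2.21 in 12DAC calli and 33.4% ± 0.917 in 7DAC calli. PGY1 held 44.0% ± 1.48 in 12DAC calli and 39.7% ± 1.96 in 7DAC calli of L10a message and AT5G22440 18.5% ± 0.354 in 12DAC calli and 21.8% ± 0.996 in 7DAC calli, and the share of the third gene, AT1G08360, overlapped at 37.5% ± 1.79 in 12DAC calli and 38.5% ± 1.06 in 7DAC calli. AT3G09630, one of 2 genes for L4, which lines the peptide tunnel, held 56.1% ± 1.34 in 12DAC calli and 51.6% ± 0.980 in 7DAC calli, with AT5G02870 the rest. The L4 genes had log2 changes of -0.36 ± 0.081 and -0.62 ± 0.097. Shares of counts per coding length moved the same way in these 5 families for each gene whose TPM shares did not overlap. A difference between paralogs did not always set the shares apart: in P0, L34 and S12, with differences of 0.23, 0.15 and 0.13, the TPM shares of every paralog overlapped between the days.

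**Figure D4:**
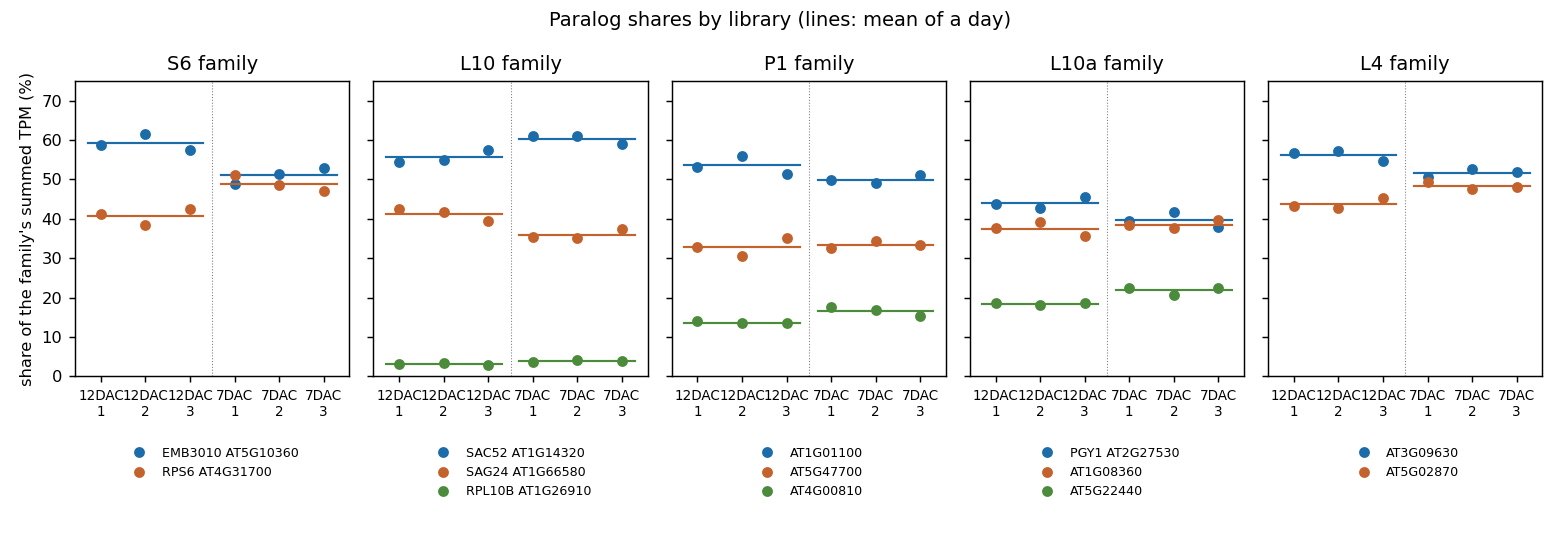
Share of each paralog in the summed TPM of its family (y axis, percent) in each library (x axis; 12DAC replicates 1 to 3, then 7DAC replicates 1 to 3) for the 5 families of the set with the widest difference in change between paralogs; points are libraries and lines the mean of a day. RPS6 stands at 40.8% of S6 in 12DAC calli and 48.9% in 7DAC calli, and EMB3010 at 59.2% in 12DAC calli and 51.1% in 7DAC calli.

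A further shift involved a gene outside the set. AT1G77940 held 44.7% ± 2.22 in 12DAC calli and 53.2% ± 0.760 in 7DAC calli of L30 message, and its paralog AT3G18740 held 55.3% ± 2.22 in 12DAC calli and 46.8% ± 0.760 in 7DAC calli. By counts per coding length AT1G77940 held 52.7% ± 2.499 in 12DAC calli and 60.7% ± 1.03 in 7DAC calli, so its share was lower in 12DAC calli on both measures, while which gene of the pair led there depended on the measure. AT3G18740 itself fell with a log2 change of -0.31 ± 0.086 (edgeR, adjusted p = 0.0273), a call that ended without 12DAC replicate 1 or 2 or 7DAC replicate 2 or 3 (adjusted p 0.0562 to 0.10) and on log2(TPM + 1) (adjusted p = 0.643). RP1 held 97.5% ± 0.314 in 12DAC calli and 95.7% ± 1.11 in 7DAC calli of L3 message, and its minor paralog RPL3B fell with a log2 change of -1.07 ± 0.20 (edgeR, adjusted p = 0.0098). Among the fitted genes of the set alone, the difference between the least and the most negative paralog was smallest in L5, L37 and L9, at 0.017, 0.013 and 0.010. Paralogs outside the set lay further off in L37 (AT1G15250, log2 change -0.17) and L9 (AT4G10450, -0.60). The L9 pair, AT1G33120 and PGY2 (AT1G33140), cannot be read as separate genes with confidence: their coding sequences are 99.1% identical, with an identical run of 458 bases. Their CPM per coding kilobase was 0.525 and 0.371 of their TPM, where the other fitted genes of the set lay between 0.933 and 3.23. Both tables do not treat identical copies alike, since AT1G58983, an S2 gene outside the set, was listed with 0 counts in every library but with 932 ± 54.9 TPM in 12DAC calli and 1258 ± 182 TPM in 7DAC calli.

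From the set, 14 genes were picked for a known plant phenotype or regulation, without a count of all such genes. In these, as in all 59 fitted genes and in 22.5% of all tested loci, the 12DAC libraries lay below the 7DAC libraries. The PIGGYBACK genes, whose mutants deepen the leaf polarity defect of asymmetric leaves mutants, had log2 changes of -0.35 ± 0.092 for PGY1, -0.41 ± 0.11 for PGY2 and -0.54 ± 0.088 for PGY3, listed as ATL5 (AT3G25520), an L5 gene whose protein carries the small 5S ribosomal RNA. ATL5 had 984, 928 and 1084 CPM in 12DAC calli, against 1454, 1438 and 1464 CPM in 7DAC calli. PGY2 had 187, 203 and 238 CPM in 12DAC calli, against 262, 293 and 277 CPM in 7DAC calli. Of the 3, PGY1 had the least negative change.

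POINTED FIRST LEAVES, PFL (AT1G22780), encodes S18 and had 294, 285 and 292 CPM in 12DAC calli, against 409, 412 and 459 CPM in 7DAC calli, a change of -0.55 ± 0.085. RPS13A (AT4G00100), also known as PFL2, had 476, 454 and 521 CPM in 12DAC calli, against 641, 634 and 654 CPM in 7DAC calli, a change of -0.41 ± 0.086. RPS5A (AT3G11940), strongly expressed in dividing cells, had 725, 717 and 774 CPM in 12DAC calli, against 964, 975 and 1017 CPM in 7DAC calli, a change of -0.42 ± 0.081. In each of these 3 the 7DAC libraries stood above all 12DAC libraries. STV1 (AT3G53020), an L24 gene that lets ribosomes restart after upstream reading frames of auxin response factor messages, had 394, 419 and 439 CPM in 12DAC calli, against 616, 618 and 596 CPM in 7DAC calli, a change of -0.55 ± 0.082.

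SAC52, whose altered form suppresses the short stem of a thermospermine-deficient mutant, had 632, 639 and 730.1 CPM in 12DAC calli, against 1049, 1000.1 and 1009 CPM in 7DAC calli, a change of -0.61 ± 0.089. P40 (AT1G72370), the main Sa gene, had 834, 817 and 968 CPM in 12DAC calli, against 1213, 1213 and 1218 CPM in 7DAC calli, a change of -0.48 ± 0.092. Its day 12 values spread from 817 to 968 CPM, and its day 7 values from 1213 to 1218 CPM. AT5G02870, known as RPL4D, had 497, 477 and 557 CPM in 12DAC calli, against 853, 761 and 745 CPM in 7DAC calli, a change of -0.62 ± 0.097. AT1G70600, for L27a, had 425, 417 and 503 CPM in 12DAC calli, against 684, 689.7 and 681 CPM in 7DAC calli, a change of -0.61 ± 0.095. With RPL23AA, RPS6 and EMB3010, described above, these 14 genes ranged from -0.76 to -0.26, where the whole set ranged from -0.88 to -0.22.

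The rest of the cytosolic family was not chosen by the rule, and the fit of each gene can be read as a test of that gene. As a group it gives no independent support for the set. The set was put forward with this contrast known, and both groups come from the same libraries. Of 174 genes, 157 were fitted; 142 fell, where 12.5% of all tested loci were called lower, 1 rose, where 12.7% were called higher, and 14 did not pass (edgeR, adjusted p under 0.05). Their median log2 change was -0.55, the same to 2 decimals as that of the 60-gene set, and in 151 of them all 12DAC libraries lay below all 7DAC libraries, as in 22.5% of tested loci. The lowest adjusted p among those that fell belonged to AT4G33865, for S29, with 139, 135 and 144 CPM in 12DAC calli, against 240.2, 253 and 241 CPM in 7DAC calli. AT4G33865 had a log2 change of -0.81 ± 0.082 (edgeR, adjusted p = 0.0014). AT3G11120, for the very short protein L41, changed by -0.85 ± 0.086, and AT3G55750, for L35a, by -0.86 ± 0.092 (edgeR, adjusted p = 0.0014 and 0.0015).

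The 1 gene that rose was RPL18AA (AT1G29970), annotated as an L18a protein. RPL18AA had 43.3, 50.1 and 40.7 CPM in 12DAC calli, against 17.5, 20.4 and 23.2 CPM in 7DAC calli, a log2 change of 1.13 ± 0.14 (edgeR, adjusted p = 0.0019), with all 12DAC libraries above all 7DAC libraries, as in 21.2% of tested loci. It was a minor gene, at 63.8 ± 13.3 TPM in 12DAC calli and 26.8 ± 6.75 TPM in 7DAC calli. Both other genes with a positive change, AT3G08520 for L41 and AT5G39850 for S9, had 0.16 ± 0.096 and 0.29 ± 0.14 and did not pass. In the set the highest value was RP1 at -0.22. On log2(TPM + 1), 15 of the other genes were called lower, with a median of -0.45, where 3.05% of all loci were called lower.

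Lists of genes that work with the ribosome gave a background for the set; they were chosen with earlier results of these data known, and 25.1% of all tested loci were called in one direction or the other. Counts of called genes in these lists moved with single libraries, as given for each, and on log2(TPM + 1) the calls were 2 higher and 0 lower in the TOR list, 0 among translation factors, 0 among biogenesis genes, 1 lower among plastid ribosomal proteins, 9 lower among mitosis genes and 17 lower among mesophyll genes. On that scale 11.2% of all loci were called in either direction and 3.05% lower. Calls over all loci moved with the libraries too: 8.27%, 9.22% and 10.9% of loci were called lower without 12DAC replicate 1, 2 or 3, and 6.62%, 7.84% and 8.05% without 7DAC replicate 1, 2 or 3, against 12.5% with all libraries. The share called lower was 10% with DESeq2, 12.8% with limma-voom, 13.8% with the replicate block and 14.7% with library sizes alone. Of 10 genes of the TOR pathway and of ribosome-associated proteins, 4 rose and 3 fell, or 2 and 2 without 7DAC replicate 1 or 2. S6K2, one of the kinases that phosphorylate S6, had 43.8, 69.4 and 45.5 CPM in 12DAC calli, against 23.9, 21.1 and 25.8 CPM in 7DAC calli and rose with a log2 change of 1.17 ± 0.19 (edgeR, adjusted p = 0.0045). TOR itself rose by 0.75 ± 0.17, PK1, which is S6K1, by 0.46 ± 0.084 and the TOR partner RAPTOR1 by 0.36 ± 0.097 (edgeR, adjusted p 0.0064 to 0.026). The call of TOR ended without 7DAC replicate 1 or 2 (adjusted p 0.0524 to 0.0552), and that of RAPTOR1 without 12DAC replicate 1 or any 7DAC library (adjusted p 0.0648 to 0.0847) and with library sizes alone (adjusted p = 0.0505). On log2(TPM + 1) neither PK1 nor RAPTOR1 was called (adjusted p = 0.133 and 0.259). So both S6 kinase genes were higher in 12DAC calli while both S6 genes of the set were lower. The 3 RACK1 genes, for a scaffold protein on the small subunit, fell, with changes of -0.49 ± 0.088 for ATARCA, -0.70 ± 0.10 for RACK1B and -0.57 ± 0.13 for RACK1C (edgeR, adjusted p 0.0029 to 0.013); RACK1C lost its call without 7DAC replicate 1 or 2 (adjusted p 0.0501 to 0.0517).

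Of 20 translation factors, 8 fell, or 3 without 7DAC replicate 1 and 5 without 12DAC replicate 1 or 7DAC replicate 2 or 3, with a median of -0.14. None rose under edgeR, though 1 had a positive change at an unadjusted p under 0.05 under edgeR, DESeq2 and limma-voom alike. FBR12, an eIF5A gene, changed by -0.49 ± 0.081 (edgeR, adjusted p = 0.0041) and AT1G07940, an elongation factor 1-alpha gene, by -0.47 ± 0.089 (edgeR, adjusted p = 0.0071); neither was called on log2(TPM + 1) (adjusted p = 0.258 and 0.417). All 4 elongation factor 1-alpha genes of the list fell, and 2 of them lost the call without 12DAC replicate 2 or 3 or 7DAC replicate 1 or 3. Coding identity among these 4 was not computed, so how far they can be read as separate genes is not known. LOS1, for elongation factor 2, had a value of -0.13 ± 0.082 and did not pass. Of 20 ribosome biogenesis genes, 5 fell, with a median of -0.25, or 8 with the replicate number as a block, with limma-voom or with library sizes alone. Without any one 7DAC library 0 fell, where 6.62% to 8.05% of all loci were called lower. Without 12DAC replicate 1, 2 or 3 the counts were 3, 1 and 8, against 8.27%, 9.22% and 10.9% of all loci. On log2(TPM + 1) without ribosomal RNA loci 2 fell, against 9.33% of all loci. None rose under edgeR with all libraries, and 1 was called higher under DESeq2 and without 12DAC replicate 2. AT3G23620 and PUM24, for factors of ribosomal RNA processing, fell, with changes of -0.39 ± 0.10 and -0.40 ± 0.11 (edgeR, adjusted p = 0.025 and 0.026). Leaving out 12DAC replicate 1 or 2 or any 7DAC library ended the call of AT3G23620 (adjusted p 0.0586 to 0.0824), and leaving out 12DAC replicate 2 or any 7DAC library that of PUM24 (AT3G16810; adjusted p 0.0505 to 0.0819). Of 25 nuclear genes for plastid ribosomal proteins, 8 fell, with a median of -0.36, or 3 without 12DAC replicate 1 or any one 7DAC library, 5 without 12DAC replicate 3 and 4 under DESeq2. Plastid RPS1 and PRPS20 were at -0.65 ± 0.11 and -0.56 ± 0.11 (edgeR, adjusted p = 0.0041 and 0.0087) and were not called on log2(TPM + 1) (adjusted p = 0.119 and 0.235). None of the 25 rose, and none had an unadjusted p under 0.05 upward under edgeR, DESeq2 or limma-voom.

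The list for dividing cells (mitosis genes) and that for leaf mesophyll (genes of the photosynthetic light reactions) were lower in 12DAC calli, as the set was. No cell type is named from either list. In 12DAC replicates 1, 2 and 3 the summed level was 798, 781 and 734 CPM for the mitosis list. For the mesophyll list it was 249, 313 and 173 CPM. What the order of these 3 libraries reflects was not tested. Of 20 mitosis genes, 19 fell, with a median of -0.74, where 12.5% of all tested loci were called lower. The summed level of the mitosis list was 734 to 798 CPM in 12DAC calli and 1233 to 1364 CPM in 7DAC calli. SYP111, the cytokinesis syntaxin, changed by -0.89 ± 0.089 and CYCB1;1, a mitotic cyclin, by -0.96 ± 0.10 (edgeR, adjusted p = 0.0014 and 0.0015). Of 20 mesophyll genes, 19 were fitted and 13 fell, with a median of -1.06, beside the same 12.5% of all loci. Without 12DAC replicate 1 or 7DAC replicate 1, 7 fell, where 8.27% and 6.62% of all loci were called lower. On log2(TPM + 1) without ribosomal RNA loci 8 fell, against 9.33% of all loci, and under DESeq2 18 of 20, against 10%. The summed level of the mesophyll list was 173 to 313 CPM in 12DAC calli and 362 to 599 CPM in 7DAC calli. Of that list DRT112, for plastocyanin, changed by -1.59 ± 0.24 and PSBX by -1.37 ± 0.21 (edgeR, adjusted p = 0.0031 and 0.0033). CAB3, too low to be tested, had 0, 0 and 0 counts in the 12DAC libraries, against 5, 2 and 11 counts in the 7DAC libraries, and was listed at 0.46 TPM in 12DAC replicate 3. Counts and TPM thus differ for CAB3, and its 0 counts are not read as absence. In neither list did a gene rise or have an unadjusted p under 0.05 upward under edgeR, DESeq2 or limma-voom. The part of dividing or mesophyll cells in the values of the ribosomal protein genes was not tested.

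**Figure D5:**
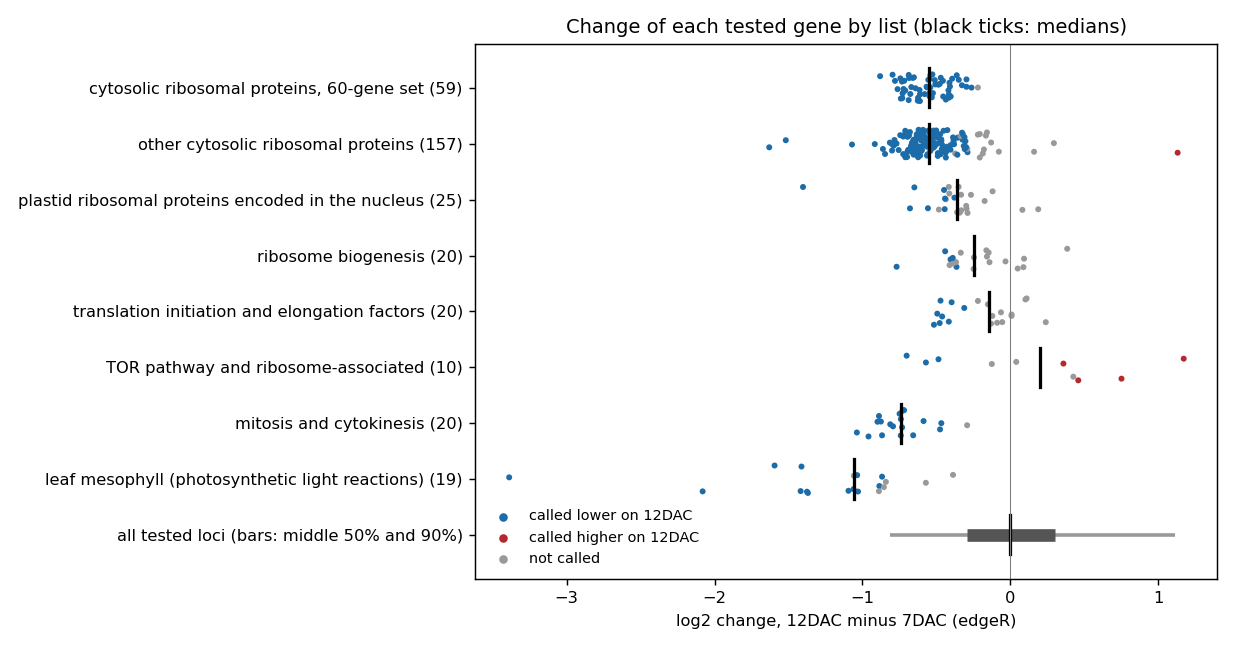
Fitted log2 change of 12DAC over 7DAC calli (x axis) for each fitted gene of each list (rows, with the number fitted); blue points were called lower, red points higher and grey points not called by edgeR, black ticks are medians, and the last row shows the middle 50% and 90% of all 18364 tested loci. The 60-gene set and the rest of the family share a median of -0.55, the mitosis list stands at -0.74 and the TOR list at 0.20.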

How the data were processed

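RNA of 6 callus libraries, 3 labelled 12DAC and 3 labelled 7DAC, was measured; per the labels' protocols, libraries were made from 1 μg total RNA with the TruSeq RNA library kit. The submitters' processing notes name STAR 2.7.10a, RSEM 1.3.1 and the TAIR10 genome, with no statement of which tool made which table. The authors deposited a table of raw counts per locus and a table of TPM, both for 36793 loci; how reads shared by near-identical copies were counted, and whether strand was used, is not given in the sources used here. The 12DAC libraries hold 4927953 to 10426265 counts and the 7DAC libraries 7412972 to 10746277. The limit of 3 counts for a gene without counts covers counting error only. Each value after ± is an SD over the 3 libraries of a day or a standard error of the fit. Both include the spread between libraries.

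Counts were tested with edgeR 4.0.16 (R 4.3.3; filterByExpr, TMM, robust quasi-likelihood fit on day alone, Benjamini-Hochberg adjustment over all 18364 loci tested, threshold 0.05). Standard errors are the log2 change divided by the square root of F. Alternatives used limma 3.58.1 and DESeq2 1.42.0. The edgeR step was also run on simulated counts with the same dispersion for all genes. That setting is simpler than these libraries, so no result here rests on it. Every pair of replicates differed by more than counting noise (chi-square per degree of freedom 10.4 to 43.9). Replicates are called biological in the series' design text, and whether they came from separate plates is not given, so p-values measure the spread between these samples. Same-numbered libraries deviated together (correlations of 0.146, 0.149 and 0.254, against -0.157 to 0.0065 between numbers), so the numbers may pair the samples. Deviations within a day sum to 0, which pushes the correlations between numbers down, so the data do not settle the pairing. Values given are from the fit on day alone, and a fit with the replicate block was run as an alternative.

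Members and gene lists were chosen with earlier results of these data known. Genes named are the 3 highest and 3 lowest changes of each subunit (2 and 2 for the stalk) and the highest TPM of each group. Also named are the 5 families with the widest spread and 14 genes picked for known phenotypes or regulation. The lowest adjusted p in the rest of the family and 2 called genes of each list complete the choice. Others were named after their values were seen. 4 pseudogenes were left out. Gene names, starts and sequences are RefSeq's for TAIR10.1, joined by locus (36629 of 36793 loci matched); the deposited tables hold no coordinates. Coding identity was computed with Biopython 1.88.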

Additional observations from a re-analysis of the deposited data

How the results depend on the processing

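All 59 fitted genes of the set kept a negative log2 change under each of the 18 alternatives, and no result reversed. On log2(TPM + 1), 9 were called lower, with medians of -0.45 for the set and -0.57 for the stalk. There, 15 of the other family genes were called lower, with a median of -0.45. On log2(TPM + 0.1) these were 9, -0.45, -0.57, 16 and -0.45. Over all loci, 3.05% and 3.06% were called lower on these scales. Rescaling TPM without ribosomal RNA loci gave 58, with 9.33% of all loci lower, so the loss on the TPM scale went with the ribosomal RNA loci. RLE factors, limma-voom and leaving out organelle or ribosomal RNA loci gave 58, where 12.0% to 12.8% of all loci were called lower. Upper-quartile factors, library sizes alone and DESeq2 gave 59, adding RP1, with 14.3%, 14.7% and 10% of all loci lower. No count filter gave 56, with 8.83% of all loci lower. With the replicate block 58 were called lower, as were 13.8% of all loci, and the median was -0.55. Apart from the ribosome biogenesis list, the block moved no count given here by more than 1.5 times. Leaving out single libraries gave 47 (without 7DAC replicate 2) to 56 (without 12DAC replicate 3) called lower. In these 2 fits 7.84% and 10.9% of all loci were called lower. Library sizes alone moved the median of all loci to -0.046. With 3 libraries a day, the call of a small change such as that of RP1 depended on the processing: RP1 was called lower in 4 of the 18 alternatives.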

Other observations

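Across the 59 fitted genes, the log2 change was less negative for genes of higher TPM (Spearman's rho 0.38) and of longer coding sequence (rho 0.31). In the 157 other fitted genes of the family rho was 0.12 for TPM and 0.33 for coding length. These are descriptions across genes that share libraries and depth, not tests. By promoter motif, the 38 genes of the set with a site II element had a median change of -0.54 and the 21 fitted genes without one -0.62, while the 8 with a telo box had -0.63 and the 51 without -0.54.

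Among family genes of low level outside the set, AT3G09680 for S23 had 1.22, 1.91 and 1.69 CPM in 12DAC calli, against 7.89, 3.50 and 3.76 CPM in 7DAC calli, the lowest log2 change of the family at -1.63 ± 0.42 (edgeR, adjusted p = 0.023), a call that ended without 12DAC replicate 1 or 7DAC replicate 1 (adjusted p 0.0822 and 0.0869). AT5G59240 for S8 had 5.41, 5.35 and 4.87 CPM in 12DAC calli, against 17.4, 14.7 and 13.1 CPM in 7DAC calli, a change of -1.52 ± 0.18 (edgeR, adjusted p = 0.0019). Both are minor copies, and both were named after their values were seen.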
